A study of Mus musculus with 6 samples.

Results

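Cholesterol and fatty acid synthesis enzymes were represented by 8 named genes, Hmgcs1, Sqle, Fdft1, Fdps, Dhcr7, Fasn, Scd1 and Scd2, out of 21958 protein-coding genes counted in mouse synaptoneurosomes. They were chosen by name, with earlier results of these data known. Of these 8 genes, 7 had enough counts to be tested among 12255 genes, and Fdps did not. Synaptoneurosomes are fractions of brain tissue enriched in pinched-off synaptic terminals, here from the hippocampus and neighbouring cortex of FVB mice aged 6 to 8 weeks. Material pooled from several mice was split into aliquots, and 3 such preparations gave 6 RNA-seq libraries in 2 groups of 3. The total group is RNA of synaptoneurosomes that were left unstimulated. The polyribosome group is RNA from the light and heavy polyribosomal fractions of a sucrose gradient, after NMDA receptors were stimulated with 50 µM NMDA and 10 µM glutamate for 30 s, blocked with 120 µM APV, and the samples kept for 20 min. No agent or genotype separated the mice themselves. By the paper's methods, unstimulated controls stayed on ice in cycloheximide, while stimulated samples were warmed before and after the pulse. The groups differ in stimulation, in this handling and in RNA fraction, so these cannot be told apart here. Nor can fewer fragments of a cell type and less RNA per fragment be told apart in such bulk samples.

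Cells build cholesterol from acetyl-CoA through the mevalonate pathway, and fatty acids from acetyl-CoA and malonyl-CoA. The adult brain makes its own cholesterol behind the blood-brain barrier, and glia are known as a major site of this synthesis, with myelin as a large sterol store. Transcription of both pathways is driven by the sterol-regulated factors SREBP2 and SREBP1, encoded by Srebf2 and Srebf1. Hmgcs1 makes HMG-CoA early in the mevalonate pathway. Fdps then makes farnesyl diphosphate, Fdft1 (squalene synthase) joins farnesyl units into squalene, Sqle oxidises squalene, and Dhcr7 catalyses the last reduction to cholesterol. Fasn makes palmitate, and Scd1 and Scd2 are desaturases that place the first double bond into saturated fatty acyl chains.

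All 7 tested enzymes had higher levels in the polyribosome library than in the total library of the same preparation, in each of the 3 pairs. None passed an adjusted p of 0.01 in the unpaired test, where 0.710% of all genes tested were called higher and 2.36% lower. Their log2 fold changes lay between 0.20 for Scd1 and 0.51 for Dhcr7, or 1.15-fold to 1.43-fold, with a median of 0.33 against 0.00 over all genes tested. With the preparation as a block in the fit, all 7 values were positive and 3 were called higher, those of Dhcr7, Hmgcs1 and Fasn. Of all genes tested, 11.8% were called higher and 13.2% lower in that fit. It called 0 of the 7 without preparation 1 and 0 without preparation 2, where 627 of 12176 and 518 of 12365 genes were called higher.

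The 8 genes together took 0.687, 0.706 and 0.814% of all counts in polyribosome libraries 1, 2 and 3, and 0.580, 0.616 and 0.685% in total libraries 1, 2 and 3. The mean share was 0.736% ± 0.0685 (SD, n = 3) in polyribosomes and 0.627% ± 0.0537 (SD, n = 3) in total RNA. Most of that share was Scd2, which alone took between 0.482 and 0.555% of counts in polyribosomes and between 0.398 and 0.480% in total RNA. Library totals ran from 5294482 to 7361580 counts in the polyribosome group and from 1044955 to 3738022 in the total group, so the total libraries were shallower, with total 3 the lowest. Replicates of a group differed by more than sampling noise. Levels below are CPM, that is counts scaled to a common library size with TMM factors, unless said to be per kilobase.

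In the mevalonate branch, the counts of Hmgcs1 (chromosome 13, 119690462 to 119708086, GRCm38) were 409, 475 and 623 CPM in polyribosomes and 358, 392 and 367 CPM in total RNA. Every polyribosome value lay above every total value, and polyribosome 3 stood highest. The log2 fold change was 0.43 (SE 0.18), with an edgeR quasi-likelihood p of 0.0335 and an adjusted p of 0.119 over all genes tested. With the preparation as a block, Hmgcs1 rose by 0.40 on the log2 scale (adjusted p = 0.00757, edgeR). Without polyribosome 3 the unpaired value was 0.25.

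Sqle (chromosome 15, 59315077 to 59331192), the squalene epoxidase, had 125, 121 and 129 CPM in polyribosomes, and 112, 117 and 79.6 CPM in total RNA. The groups did not overlap, but the gap to totals 1 and 2 was small and total 3 lay apart from them. In that library Sqle rested on 83 counts, with an exact Poisson 95% interval of 63.4 to 98.7 CPM that covers counting error only. Its log2 fold change of 0.27 (SE 0.17) had an adjusted p of 0.303 in edgeR, and 0.0965 with the block. Without total 3 the log2 fold change was 0.13, the lowest value for Sqle with 1 library left out.

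Fdft1 (chromosome 14, 63145153 to 63177793) had 75.3, 94.9 and 103 CPM in polyribosomes and 73.5, 79.4 and 82.5 CPM in total RNA. The groups overlapped, since polyribosome 1 lay within the range of the total libraries. The log2 fold change was 0.22 (SE 0.17, adjusted p = 0.393 in edgeR), against 0.13 without polyribosome 3 and 0.34 without polyribosome 1. The 3′ end of Fdft1 overlaps Ctsb on the opposite strand by 767 bases, and Ctsb, a lysosomal protease, had a log2 fold change of 0.52 (adjusted p = 0.0605 in edgeR). Whether the counting separated the strands is not given in the sources used here, so the reads of that stretch are uncertain.

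Dhcr7 (chromosome 7, 143823145 to 143848410) had 108, 128 and 154 CPM in polyribosomes and 85.2, 101 and 86.3 CPM in total RNA. Every polyribosome library lay above every total library. Its log2 fold change of 0.51 (SE 0.18) was the largest of the 7, and 14.1% of all genes tested had a higher one. The edgeR quasi-likelihood p was 0.011, and 0.0605 after adjustment. With the block, Dhcr7 rose by 0.48 (adjusted p = 0.00162, edgeR).

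In the fatty acid branch, Fasn (chromosome 11, 120805940 to 120824178) had 596, 559 and 1025 CPM in polyribosomes and 474, 454 and 701 CPM in total RNA. The groups overlapped, because preparation 3 was high in both fractions, yet within each preparation the polyribosome value was the higher one. The log2 fold change was 0.42 (SE 0.24, adjusted p = 0.24, edgeR) without the block, and 0.39 (adjusted p = 0.00864) with it. Without polyribosome 3 the unpaired value was 0.10, and without total 3 it was 0.64.

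Scd1 (chromosome 19, 44394451 to 44407709) had 727, 684 and 793 CPM in polyribosomes and 578, 599 and 742 CPM in total RNA. Total 3 reached into the range of the polyribosome libraries. The log2 fold change of 0.20 (SE 0.17, adjusted p = 0.45, edgeR) was the smallest of the 7, and it was 0.12 without total 1 and 0.32 without total 3.

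Scd2 (chromosome 19, 44293676 to 44306864), known as the main desaturase form of brain, had 4803, 5225 and 6045 CPM in polyribosomes and 3698, 4255 and 4808 CPM in total RNA. The groups touched, as total 3 lay just above polyribosome 1. Scd2 had a log2 fold change of 0.33 (SE 0.19, adjusted p = 0.236, edgeR), and 0.33 (adjusted p = 0.0342) with the block. Its 3 paired differences on the log2 scale, 0.38, 0.30 and 0.33, had the smallest spread of the 7 (SD 0.04).

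**Figure D1:**
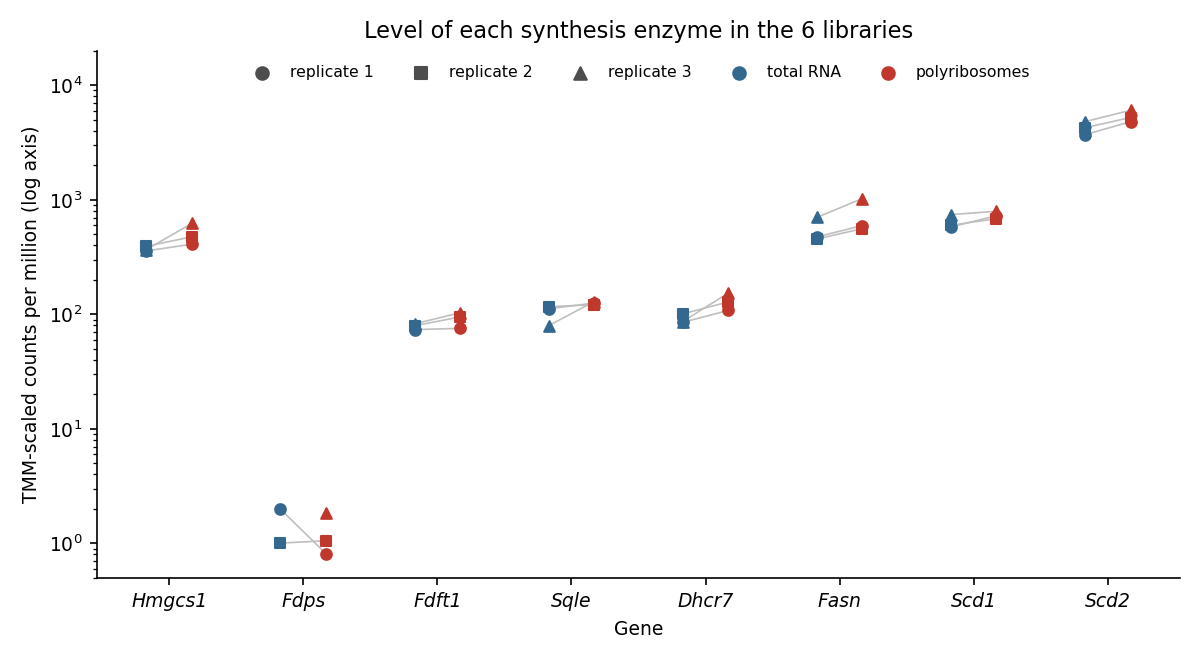
Level of each of the 8 enzymes in CPM on a log axis, with 1 point per library for the polyribosome (red) and total (blue) groups, and grey lines joining libraries of the same preparation. Hmgcs1, Sqle and Dhcr7 show groups that do not overlap, and Fdps lies near 1 CPM, with total 3 at 0 and therefore not drawn.

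The groups did not overlap for Hmgcs1, Sqle and Dhcr7, 3 of the 7 tested enzymes, where 17.4% of all genes tested had every polyribosome library above every total library. The polyribosome value was the higher one in all 3 pairs for 7 of 7, against 30.2% of all genes tested. By the edgeR test at an adjusted p of 0.01, 0 of 7 were called higher, and the background was 0.710% of genes called higher and 2.36% called lower, that is 87 and 289 genes. Scaled by library totals alone, the split was 42 higher and 366 lower, the median of all genes moved to -0.11, and the median of the enzymes was 0.23, again above that of all genes, by 0.34. At an unadjusted p under 0.05, 2 of 7 were higher, Dhcr7 and Hmgcs1, against 15.4% of all genes. DESeq2 called 0 of the 7 at the adjusted threshold, against 3.31% of genes, and 3 at an unadjusted p under 0.05, against 9.75% of genes higher.

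With the block, 3 of 7 were called higher and 0 lower, where 11.8% of all genes tested were called higher and 13.2% lower. In that fit the SE of the enzymes lay between 0.124 for Scd1 and 0.130 for Scd2. The SD of their paired differences ran from 0.04 for Scd2 to 0.34 for Sqle. P-values of fits with the block therefore do not measure the spread of a gene's 3 pairs. These calls moved with the preparations included, as did the number called over all genes. The blocked fit called 0 of 7 without preparation 1, 0 without preparation 2, and 3 without preparation 3, when Dhcr7 (0.34), Fasn (0.31) and Scd2 (0.33) passed. Over all genes it called 627 of 12176, 518 of 12365 and 1470 of 12539 higher without preparations 1, 2 and 3. Correcting for GC content and length of the transcript together with the block left the count at 3 (background 8.09%) but changed the genes to Hmgcs1 at 0.63 (adjusted p = 3.49e-06), Scd2 at 0.46 (adjusted p = 0.00634) and Scd1 at 0.39 (adjusted p = 0.00819, edgeR). Dhcr7 at 0.36 (adjusted p = 0.0119) and Fasn at 0.33 (adjusted p = 0.0272) then missed the threshold. Without the block, the same correction gave 0.69 for Hmgcs1 and 0.38 for Scd1, and neither passed.

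**Figure D2:**
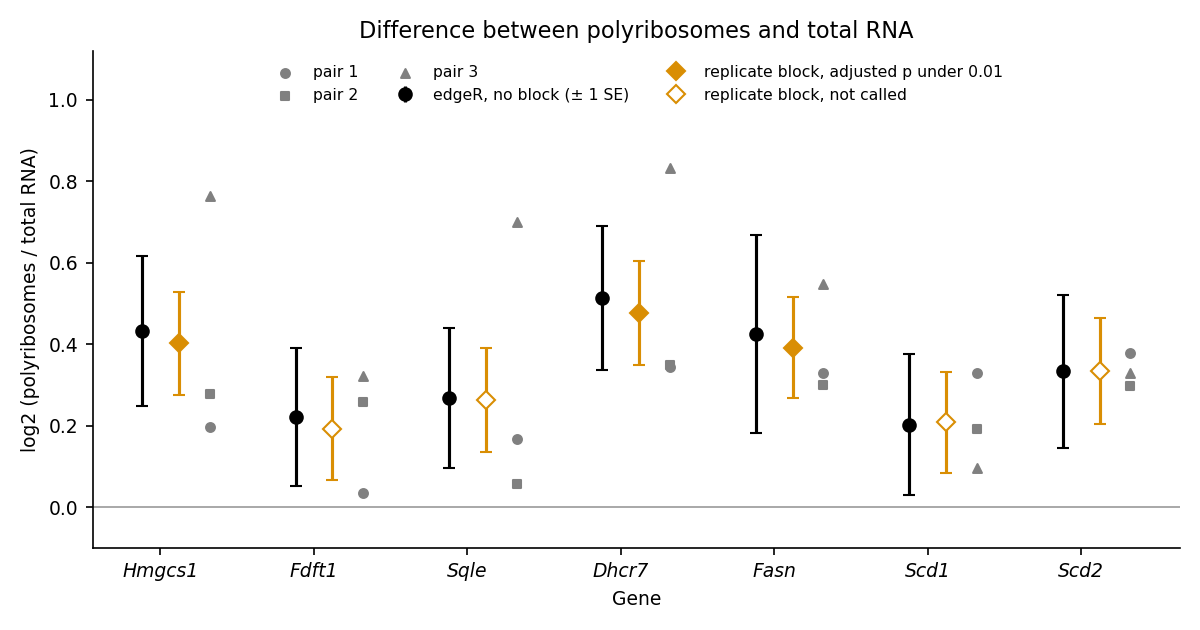
Log2 polyribosome over total for each tested enzyme, as the unpaired fit (black circles), the fit with the replicate block (diamonds, filled where the adjusted p was under 0.01), each ± 1 SE, and the 3 paired differences (grey). Every paired point lies above 0, and the highest is 0.83 for Dhcr7 in preparation 3.

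The paired differences were not of equal size. Medians over the 7 enzymes were 0.33 in preparation 1, 0.28 in preparation 2 and 0.55 in preparation 3, on the log2 scale. Preparation 3 gave the largest difference for Hmgcs1 (0.76 against 0.20 and 0.28), Sqle (0.70 against 0.17 and 0.06) and Dhcr7 (0.83 against 0.34 and 0.35). For Scd1 it gave the smallest, 0.10 against 0.33 and 0.19. Fasn (0.55 against 0.33 and 0.30) and Fdft1 (0.32 against 0.04 and 0.26) also had their largest difference there.

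Per kilobase of exon, the order of levels in polyribosomes was Scd2 (982 ± 116 CPM per kb), Scd1 (152 ± 11.4), Hmgcs1 (144 ± 31.4), Fasn (72.3 ± 25.8), Sqle (45.4 ± 1.46), Dhcr7 (39.3 ± 6.89), Fdft1 (24.6 ± 3.86) and Fdps (0.853), with SD over 3 libraries. Scd1 and Hmgcs1 overlapped in range, as did Sqle and Dhcr7, so the order within those pairs did not exceed the spread. In total RNA the order was the same, from 780 ± 102 CPM per kb for Scd2 to 21.2 ± 1.23 for Fdft1 and 0.686 for Fdps, and Sqle and Dhcr7 overlapped. Ranked among all genes tested by mean log2 CPM, which is not corrected for length, Scd2 stood at percentile 99.9. On that measure Scd1 stood at 98.6, Fasn at 98.3 and Hmgcs1 at 97.2, while Sqle, Dhcr7 and Fdft1 lay between 80.9 and 85.9. Per kilobase of coding length, the levels in polyribosomes were 4989 CPM per kb for Scd2, 690 for Scd1, 322 for Hmgcs1 and 96.7 for Fasn. Dhcr7 (91.4) then came before Sqle (73.0) and Fdft1 (73.0), so the order of these lower genes and the closeness of Scd1 and Hmgcs1 depended on the length used.

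Scd1 and Scd2 both lie on chromosome 19, on opposite strands, and their coding sequences were identical at 962 of 1074 aligned positions (89.6%). Sequences are shown here because reads of near-identical copies can be assigned to either gene. The longest stretch identical in both mRNAs is 147 bases, at positions 523 to 669 of the Scd1 coding sequence, printed with 15 flanking bases on each side, 5′ to 3′ along the mRNA and across 2 exons. The Scd1 stretch spans chr19:44400326-44401820 on the minus strand and the Scd2 stretch chr19:44299687-44301260 on the plus strand (GRCm38, Gencode vM21 transcripts). Capitals mark the 2 bases that differ.
Scd1: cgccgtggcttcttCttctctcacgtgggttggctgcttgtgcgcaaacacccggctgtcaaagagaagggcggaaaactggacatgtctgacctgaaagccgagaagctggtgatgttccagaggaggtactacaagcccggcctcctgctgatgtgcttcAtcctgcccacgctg
Scd2: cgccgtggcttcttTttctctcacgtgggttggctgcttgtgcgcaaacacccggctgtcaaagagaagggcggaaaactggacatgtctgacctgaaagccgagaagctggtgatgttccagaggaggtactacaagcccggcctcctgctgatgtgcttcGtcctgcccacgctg
Such stretches were a small part of both transcripts. Of all 100-base windows, 2.66% of the Scd1 transcript and 0.896% of the Scd2 transcript also occurred in another annotated gene. The ratio of Scd2 to Scd1 per kilobase was 5.86, 6.76 and 6.75 in polyribosomes and 5.67, 6.29 and 5.74 in total RNA. The means were 6.46 ± 0.52 and 5.90 ± 0.34 (SD, n = 3), and the ranges of the groups overlapped.

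Fdps was the exception among the 8 genes. It lies on chromosome 3 (89093588 to 89101959) and had 6, 7 and 9 counts in polyribosomes and 8, 3 and 0 in total RNA. The 0 in total 3, out of 1044955 counts, allows a level of up to 2.87 CPM on library totals, a limit for counting error only. A fold change was not computed in the main test, and the fit that kept every gene with a count gave -0.15 (SE 0.62, adjusted p = 0.905, edgeR), a value smaller than its own error. Of the other cholesterol genes tested, the lowest were Acat2 at 17.4 CPM in polyribosomes (an acetyl-CoA acetyltransferase early in the pathway, named after its values were seen) and Mvd at 10.9 CPM in total RNA.

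The Fdps transcript is largely shared with other annotated genes. Of its 50-base windows, 86.4% occurred in another gene, as did 75.8% of its 100-base windows. The overlapping gene Gm43738, on the same strand, held 77.3% and 72.5% of them. This gene was counted under an older name, RP24-394C15.7, and had 0 counts in all 6 libraries. The pseudogene Gm3571 on chromosome 10 held 40.1% of the 50-base windows and Gm5873 on chromosome 6 held 18.2%. The 60 coding bases around codon 103, which encode the first aspartate-rich motif of the enzyme, are shown because they are the same in Fdps, Gm43738 and Gm3571. Positions in GRCm38 are chr3:89095620-89095679 (minus strand) for Fdps and Gm43738, chr10:93778942-93779001 (plus strand) for Gm3571, and chr6:6736151-6736210 (minus strand) for Gm5873. Capitals mark the 2 bases at which Gm5873 differs.
Fdps: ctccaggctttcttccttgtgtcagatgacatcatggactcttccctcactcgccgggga
Gm43738: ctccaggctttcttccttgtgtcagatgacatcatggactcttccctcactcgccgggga
Gm3571: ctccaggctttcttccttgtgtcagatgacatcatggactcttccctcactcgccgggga
Gm5873: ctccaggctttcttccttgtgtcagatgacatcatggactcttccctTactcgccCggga
How the counting treated reads that fall in overlapping genes or map to several places is not given in the sources used here, and its part in the low Fdps counts was not tested. Fdps is therefore given here as counts, with no direction. For Sqle, Dhcr7 and Fasn no 50-base window was shared with another gene. The Hmgcs1 share was 13.6%, in an antisense gene. The Fdft1 share was 30.7%, with 19.9% in Ctsb on the opposite strand and 10.9% in Gm6781 on the same strand.

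The wider cholesterol pathway, a list of 20 genes from acetyl-CoA to cholesterol of which 19 were tested, showed the same direction. In the unpaired test 18 of 19 had a positive log2 fold change, against 50.1% of all genes tested. Scaling by library totals alone gave 16 positive against 40.9% of all genes, and the block gave 17 against 50.4%. The unpaired edgeR test called none of the 19, where 0.710% of all genes were called higher and 2.36% lower. DESeq2 called none either, where 3.31% of all genes were called higher. At an unadjusted p under 0.05 edgeR gave 7 higher, against 15.4% of all genes. The median was 0.36, and 0.36 over the 15 genes that are not among the enzymes above. With the block, 5 of 19 rose and 0 fell, namely Mvk, Mvd, Dhcr7, Ebp and Hmgcs1, where 11.8% of all genes were called higher and 13.2% lower. That count was 3, 1 and 2 without preparations 1, 2 and 3. Over all genes 627 of 12176, 518 of 12365 and 1470 of 12539 were then called higher. With GC content and length corrected as well, 3 of the 19 were called higher, against 8.09% of all genes. Mvk, the mevalonate kinase, had 25.4, 22.9 and 26.6 CPM in polyribosomes and 14.9, 15.4 and 9.59 CPM in total RNA. Its groups lay well apart, with a log2 fold change of 0.82 (adjusted p = 0.0185, and 0.000163 with the block, edgeR). Mvd, which decarboxylates mevalonate diphosphate, had a log2 fold change of 0.82 (adjusted p = 0.0385, and 0.0024 with the block). Ebp, a sterol isomerase, had a log2 fold change of 0.63 (adjusted p = 0.0916, and 0.00185 with the block), with total 3 at 9.59 CPM against 28.3 and 25.8 CPM in totals 1 and 2.

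**Figure D3:**
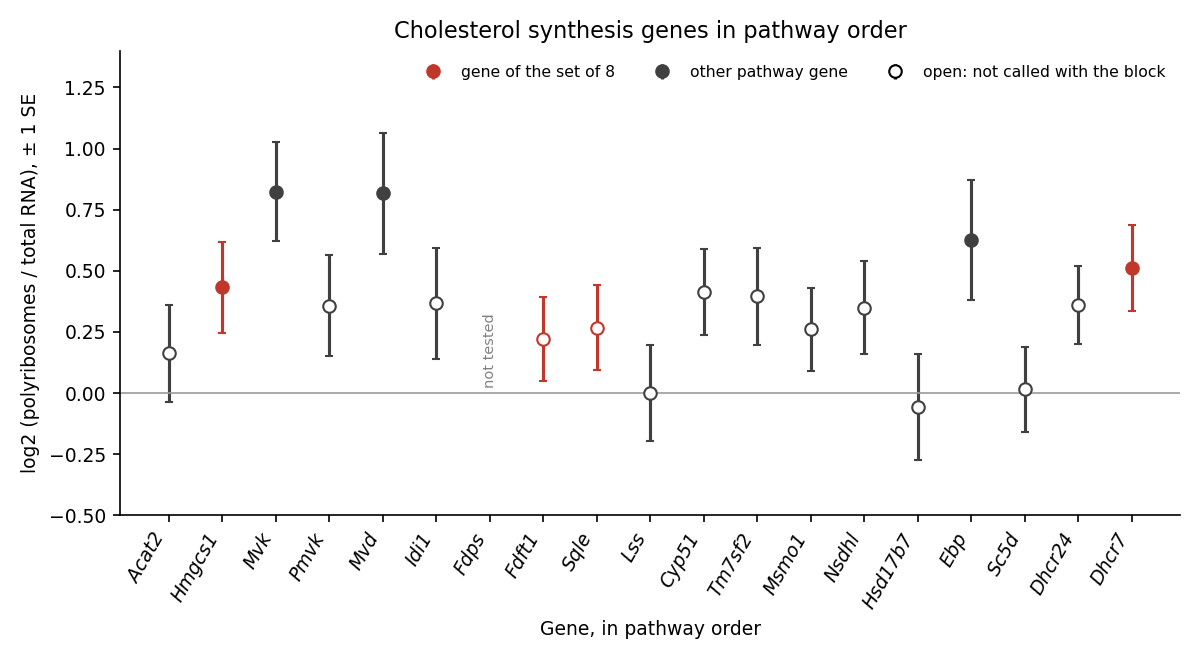
Log2 fold change, polyribosome over total, with ± 1 SE for tested genes of the cholesterol pathway in pathway order (1 of the 19 is not drawn), the enzymes above in red and points filled where the gene rose with the block. Of the 19 tested genes 18 had values above 0, against 50.1% of all genes tested (16 and 40.9% when scaled by library totals alone). Mvk and Mvd were the highest at 0.82, and Lss, the lanosterol synthase, lay at 0.00.

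In the fatty acid list, 31 genes were tested and 24 had a positive log2 fold change, against 50.1% of all genes tested. When scaled by library totals alone 20 were positive, against 40.9% of all genes. The unpaired edgeR test called 0, against 0.710% of all genes higher and 2.36% lower. DESeq2 called 2 higher, against 3.31% of all genes. At an unadjusted p under 0.05 edgeR gave 9 higher and 1 lower, where 15.4% of all genes were higher. The median was 0.29, and 0.26 over the 28 genes other than Fasn, Scd1 and Scd2. With the block, 7 of 31 were called higher and 0 lower, where 11.8% of all genes were called higher and 13.2% lower. The 7 were Fads2, Slc25a1, Tecr, Elovl1, Fads1, Hacd2 and Fasn. The count was 3, 0 and 8 higher without preparations 1, 2 and 3. Over all genes 627 of 12176, 518 of 12365 and 1470 of 12539 were then called higher. When GC content and length were also corrected, 9 were called higher and 1 lower, against 991 and 949 of 12255 genes. Fads2, the delta-6 desaturase of polyunsaturated fatty acids, had 479, 474 and 625 CPM in polyribosomes and 314, 282 and 353 CPM in total RNA. Its groups did not overlap, and its log2 fold change was 0.74 (adjusted p = 0.0177, and 1.22e-06 with the block, edgeR). Slc25a1, the mitochondrial citrate carrier, had a log2 fold change of 0.68 (adjusted p = 0.0285, and 0.000331 with the block), and Tecr, a reductase of fatty acid elongation, one of 0.65 (adjusted p = 0.0363, and 2.64e-05 with the block). Acaca, the acetyl-CoA carboxylase that feeds Fasn and named here after its values were seen, lay the other way. It had 134, 113 and 124 CPM in polyribosomes and 162, 141 and 168 CPM in total RNA, with a log2 fold change of -0.34 (adjusted p = 0.161, and 0.0241 with the block). Its groups did not overlap, in the opposite direction to those of Dhcr7 and Hmgcs1. In the fatty acid list 8 genes had groups that did not overlap and were higher in polyribosomes, and 2 lower, Acaca among them. Of all genes tested these shares were 17.4% and 18.9%.

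Of the sterol regulators, 12 were tested and 10 had a positive log2 fold change, against 50.1% of all genes tested. By library totals alone 8 were positive, against 40.9% of all genes. Their median was 0.33, or 0.16 after correction for GC content and length. The unpaired edgeR test called 0, against 0.710% of all genes higher and 2.36% lower. DESeq2 called 1 higher, against 3.31% of all genes. At an unadjusted p under 0.05 edgeR gave 5 higher and 1 lower, where 15.4% of all genes were higher. With the block, 4 were called higher, among them Scap, Nr1h2 and Srebf1, against 11.8% of all genes. Called lower was 1, against 13.2% of all genes, the site-2 protease gene Mbtps2 (-0.50 on the log2 scale, adjusted p = 0.00675, edgeR). With GC content and length corrected as well, 2 rose and 0 fell, against 991 and 949 of 12255 genes, so the call of Mbtps2 was lost. The blocked fit called 2 higher and 0 lower without preparation 1 or without preparation 2, and 4 higher and 1 lower without preparation 3. Over all genes it called 627 of 12176, 518 of 12365 and 1470 of 12539 higher without preparations 1, 2 and 3. Called lower in the same fits were 910, 682 and 1602 genes. Srebf1 had 157, 148 and 256 CPM in polyribosomes and 97.1, 110 and 145 CPM in total RNA. Its groups did not overlap, and the log2 fold change was 0.69 (adjusted p = 0.0509, and 2.12e-05 with the block, edgeR). Srebf2 had 340, 390 and 384 CPM in polyribosomes and 283, 312 and 329 CPM in total RNA, which did not overlap either. Its log2 fold change was 0.27 (adjusted p = 0.265, and 0.0746 with the block). Scap, the escort of the SREBPs, had a log2 fold change of 0.49 (adjusted p = 0.0451, and 0.00104 with the block). For Nr1h2, the oxysterol receptor LXR beta, it was 0.63 (adjusted p = 0.0486, and 0.000704 with the block). Insig1, which retains SCAP in the endoplasmic reticulum, overlapped between groups and had a value of 0.32 (adjusted p = 0.225, and 0.0473 with the block).

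Of 17 sterol transport genes, all tested, 14 had a positive log2 fold change, against 50.1% of all genes, with a median of 0.35. There were 13 positive when scaled by library totals alone, against 40.9% of all genes. The unpaired edgeR test called 0, against 0.710% of all genes higher and 2.36% lower. At an unadjusted p under 0.05 it gave 8 higher, against 15.4% of all genes. DESeq2 called 3 higher, against 3.31% of all genes. With the block 8 were called higher and 0 lower, where the shares of all genes were 11.8% and 13.2%. Without preparations 1, 2 and 3 the count was 6, 3 and 8 higher. Over all genes 627 of 12176, 518 of 12365 and 1470 of 12539 were then called higher. Lcat, which esterifies cholesterol on lipoproteins, had a log2 fold change of 0.72 (adjusted p = 0.0133, and 8.05e-06 with the block, edgeR). For Clu, a secreted apolipoprotein, it was 0.90 (adjusted p = 0.0202, and 3.85e-08 with the block). For Lrp1, a lipoprotein receptor, it was 0.69 (adjusted p = 0.0246, and 9.05e-06 with the block).

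Markers of other cell types had positive median differences in the unpaired test as well, and 1 of them was called. Over all genes tested, 50.1% had a positive log2 fold change (40.9% when scaled by library totals alone), and 0.710% were called higher. All 11 astrocyte markers had a positive log2 fold change (10 when scaled by library totals alone), with a median of 0.54, and their summed level ran from 44933 to 49310 CPM in polyribosomes and from 34543 to 40462 CPM in total RNA. All 12 oligodendrocyte markers were positive, with a median of 0.47 and summed levels of 11436 to 15402 CPM against 8222 to 11500 CPM. That median was 0.30 after correction for GC content and length, and without polyribosome 1 it was 0.32, with 10 of 12 positive. The called gene was Cldn11, a tight junction gene of myelin, and it was not called when any 1 library was left out. The 10 microglia markers were positive as well (8 when scaled by library totals alone), with a median of 0.37 and summed levels of 1014 to 1174 CPM against 649 to 916 CPM. Of 9 endothelial markers 7 were positive, with a median of 0.24 and overlapping sums of 367 to 642 CPM against 394 to 406 CPM. In the blocked fit without preparation 3, that endothelial median was -0.00302, with 4 of 9 positive. Among 12 synaptic and neuronal markers 10 were positive (7 when scaled by library totals alone), with a median of 0.30 and sums of 15372 to 19675 CPM against 13619 to 17573 CPM. None of these markers was at 0 in every library. With the block, 11.8% of all genes tested were called higher and 13.2% lower. Of the markers, 8 astrocyte, 6 oligodendrocyte, 4 microglia, 1 endothelial and 6 synaptic and neuronal genes were called higher, and none lower. Without preparation 2 these counts were 3, 4, 1, 1 and 1 in the same order, and without preparation 1 they were 3, 3, 2, 0 and 3. Over all genes 518 of 12365 were called higher without preparation 2 and 627 of 12176 without preparation 1. The part of these cell types in the difference of the enzymes was not tested.

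**Figure D4:**
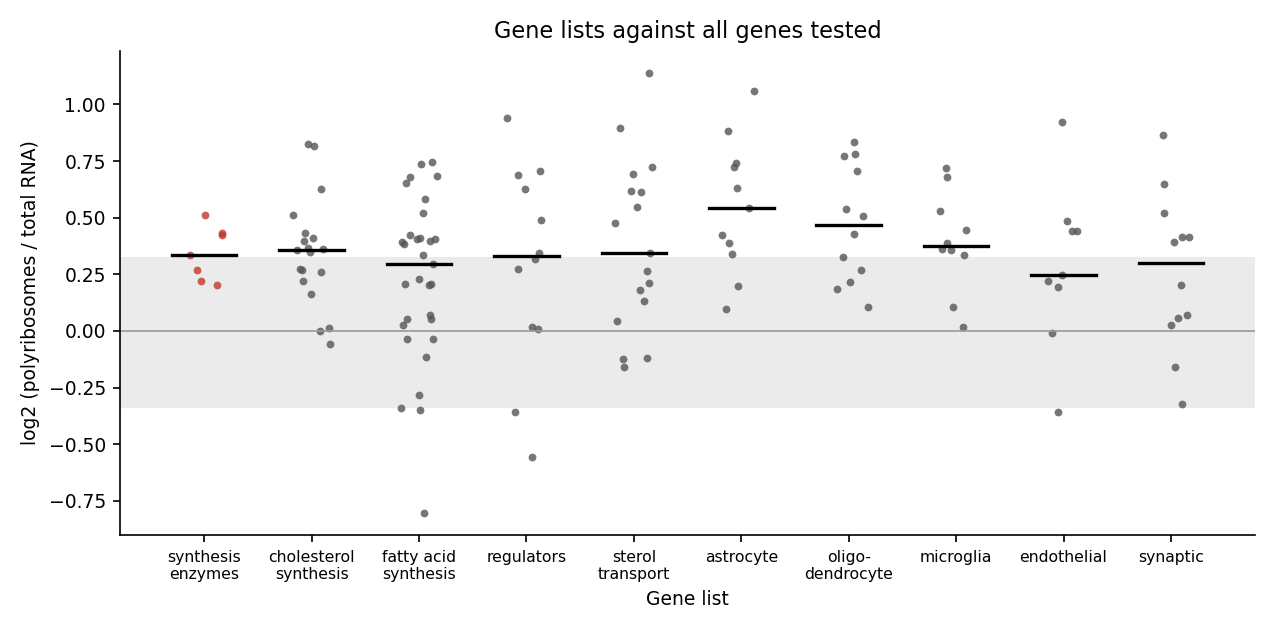
Log2 fold change of every tested gene in each list, polyribosome over total, with black bars at the list medians and a grey band between the lower and upper quartile of all genes tested, from -0.34 to 0.32. The list medians run from 0.24 for endothelial markers to 0.54 for astrocyte markers, and the enzymes have a median of 0.33.

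Across the 6 libraries, the mean profile of the 7 enzymes on the log2 scale, each centred on its own level, was 0.00, 0.10 and 0.41 in polyribosomes 1 to 3 and -0.25, -0.15 and -0.10 in totals 1 to 3. Among 12248 other genes, 4 of the 5 with the smallest mean absolute difference from it were Arpc1a (0.029), Slc43a2 (0.032), Rhoa (0.033) and Egfr (0.033), where the median gene differed by 0.295. Within the group, Hmgcs1 and Dhcr7 were nearest to each other (0.068), Fdft1 and Scd2 were next (0.092), and Scd1 was nearest to Scd2 (0.099). Fasn differed from Scd2, its nearest, by 0.194, and Sqle from Dhcr7, its nearest, by 0.210.

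**Figure D5:**
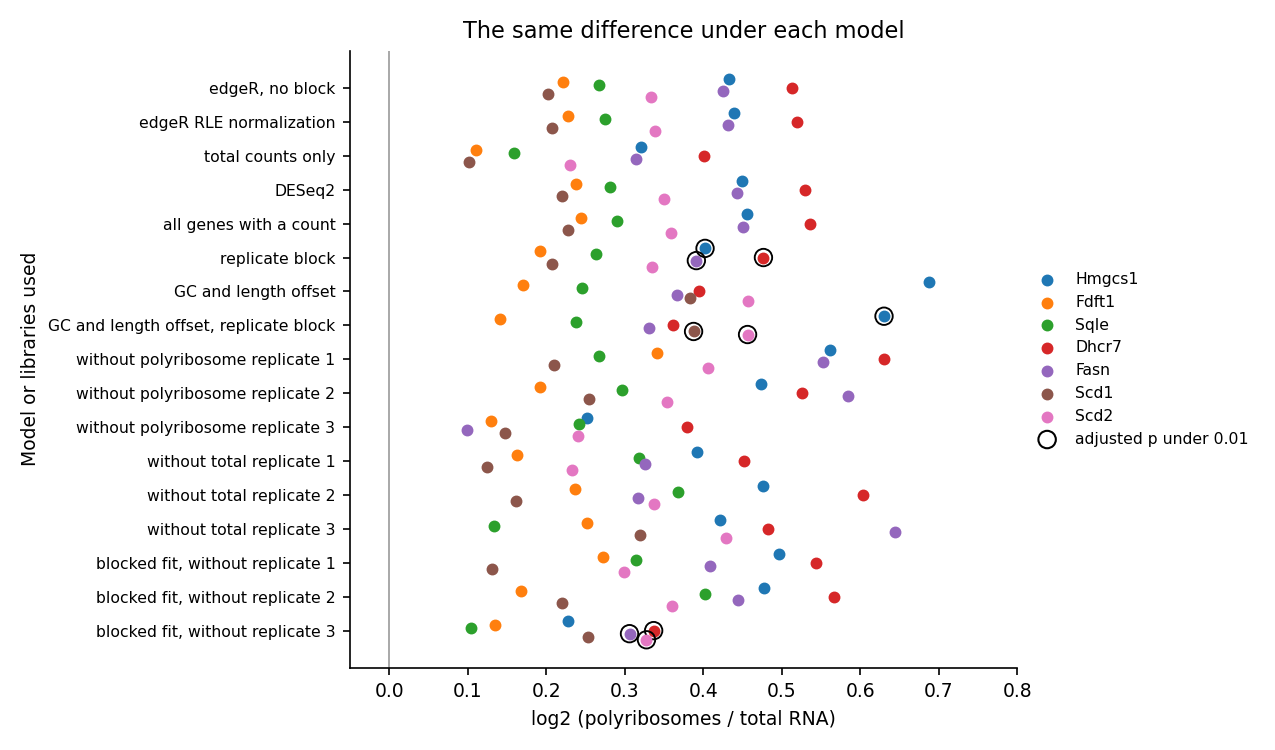
Log2 fold change of each of the 7 tested enzymes under the unpaired edgeR test and 16 alternative fits, with rings where an adjusted p under 0.01 was reached. All values lie above 0, and the 9 rings lie in fits with the replicate block.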

How the data were processed

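RNA was measured in 6 libraries, 3 of polyribosomes from stimulated synaptoneurosomes and 3 of total RNA from unstimulated ones. The authors depleted ribosomal RNA, mapped reads with STAR 2.5.2b (submitters' processing notes) to GRCm38 and deposited raw counts per protein-coding gene of Gencode vM6 basic. The paper describes strand-specific dUTP libraries, whereas the labels name a TruSeq kit. The strand setting of the counting is not given in the sources used here. The deposited table also holds the authors' DESeq2 comparison (mean normalized signal, log2 fold change with its error, a test score, p-values), which was not used.

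Counts were tested with edgeR 4.0.16 in R 4.3.3 (TMM, filterByExpr, quasi-likelihood test, group as the term). Benjamini-Hochberg adjusted p-values were taken over 12255 genes, with 0.01 as the threshold. Log2 CPM used a prior count of 2. DESeq2 1.42.0, other scalings and filters, an offset for GC content and length, the replicate block and leaving out each library were alternatives, and blocked fits without each preparation were added after seeing the data. Replicate numbers pair the samples, because both libraries of a number came from 1 preparation in the study's methods. Their deviations from group means correlated across genes at 0.37, 0.26 and 0.38. The 3 preparations are the replicates. Library totals were 1044955 to 7361580 counts. The procedure was tested on simulated data.

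The members and gene lists were chosen with earlier results of these data known. Named are the 8 enzymes, of each of the 4 pathway lists the genes called in the unpaired test (there were none) and the 3 others with the lowest p, a fixed set that includes Srebf1, Srebf2, Scap and Insig1, and the 5 genes with the nearest profile. Of the genes this rule names, 3 are not reported here. Apart from these, Acaca, Acat2, Lss, Mbtps2, Cldn11, Ctsb and the genes called with the block were named after their values were seen. Levels per kilobase used exon lengths, and shared windows and sequences came from Gencode vM21.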

Additional observations from a re-analysis of the deposited data

How the results depend on the processing

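All 7 tested enzymes kept a positive log2 fold change in 112 of 112 refits under 16 alternatives, of which 9 passed an adjusted p of 0.01, and their median ran from 0.23 to 0.42 (0.24 to 0.42 with 1 library left out). These refits use the same libraries or part of them, so they are not independent results. The number of enzymes called higher was 0 in the unpaired test, 3 with the replicate block, 3 with the replicate block and the GC and length offset, and 3 in the blocked fit without replicate 3. No other alternative called any. Over all genes, 376 were called in the unpaired test, 693 by DESeq2, 1042 with every gene with a count kept, 3063 with the replicate block, 112 with the GC and length offset, 1940 with that offset and the replicate block, and between 22 and 258 with 1 library left out. In blocked fits without 1 preparation, 1537, 1200 and 3072 genes were called without replicates 1, 2 and 3. Added to the unpaired test, the block changed no call of Sqle, Fdft1, Scd1 or Scd2, but with the GC and length offset it brought Scd1 and Scd2 past the threshold. Of 144 refitted list medians 1 changed sign, that of the endothelial markers, to -0.00302 in the blocked fit without replicate 3, and the cause was not tested. Over the 16 alternatives the medians ran from 0.19 to 0.41 for cholesterol synthesis, 0.18 to 0.36 for fatty acid synthesis, 0.16 to 0.46 for the regulators and 0.24 to 0.39 for transport. For markers they ran from 0.39 to 0.61 (astrocyte), 0.30 to 0.55 (oligodendrocyte), 0.25 to 0.55 (microglia), -0.00302 to 0.46 (endothelial) and 0.17 to 0.36 (synaptic and neuronal). Levels per kilobase of coding length were higher by construction, because coding lengths are shorter than exon lengths. The order of the 8 enzymes in polyribosomes changed only in that Dhcr7 came before Sqle. Total 3, at 1044955 counts, was the shallowest library and limits the lower values, such as Sqle at 83 counts there.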
